A study of Mus musculus with 9 samples.

Results

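Cxadr, Jam2, Igsf11 and Cd80 are 4 genes of the immunoglobulin superfamily whose proteins sit at the cell surface. Their rows were taken by gene name from a table of 11148 rows, and all 4 had a mean of at least 1 RPKM (reads divided by gene model length and by library depth) over the 9 libraries. The RNA came from cultured mouse satellite cells, the stem cells of skeletal muscle, of strain C57/BL6/DBA. The cells were taken from limb muscle of pooled males and females aged 1 to 3 days and grown on collagen-coated dishes. The medium and the passage defined the groups, with 1 library for each combination.

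F10 medium was used for a single library at P0, and its serum and FGF are not given in the labels. T cell medium, used at P0, P1, P2 and P15, was a 50:50 mixture of T cell medium with F10 medium holding 15% serum, plus 2.5 ng/ml FGF. Cytokine medium, used at the same 4 passages, was F10 medium with 15% serum and 2.5 ng/ml FGF. It also held 4 cytokines, IL-1α at 5, IL-13 at 5, IFN-γ at 10 and TNF-α at 10 ng/ml. Nothing in the labels says whether the passages of a medium came from 1 culture. The spread over passages therefore may hold culture differences, technical differences and the effect of passage itself. The 4 genes were chosen by measured values of these same libraries, namely the deficits of Cd80, Igsf11 and Jam2 against F10 medium at P0 and the excess of Cxadr in cytokine over T cell medium. These values are therefore given as descriptions without a test.

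Immunoglobulin superfamily surface proteins carry extracellular immunoglobulin folds with which they bind each other across cell contacts. Cxadr encodes the coxsackievirus and adenovirus receptor, an adhesion protein of cell junctions. Jam2 encodes junctional adhesion molecule B, known from endothelium, whose fish counterpart takes part in the fusion of muscle precursor cells. Igsf11 encodes a homophilic adhesion protein related to the product of Cxadr. Cd80 encodes a ligand of the T cell receptors CD28 and CTLA4 and is best known from antigen-presenting cells.

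All 4 genes lie on the forward strand of chromosome 16 (GENCODE vM21, mm10). Cd80 (ENSMUSG00000075122) spans 38455561 to 38496335 and Igsf11 (ENSMUSG00000022790) spans 38892671 to 39027159. Their starts are 437.1 kb apart. Cxadr (ENSMUSG00000022865) spans 78301489 to 78359774 and Jam2 (ENSMUSG00000053062) spans 84774123 to 84825928. Promoter sequences from RefSeq (GRCm38.p6) were matched for 2 of the 4 genes, Cd80 and Igsf11. These 2 are shown as the ones matched. The 250 bases before each RefSeq start, which lies inside the GENCODE span given above, are printed on the forward strand, 5′ to 3′, at chr16:38458683-38458932 for Cd80 and chr16:38902095-38902344 for Igsf11. Capitals mark the matches to the motifs described next.
Cd80: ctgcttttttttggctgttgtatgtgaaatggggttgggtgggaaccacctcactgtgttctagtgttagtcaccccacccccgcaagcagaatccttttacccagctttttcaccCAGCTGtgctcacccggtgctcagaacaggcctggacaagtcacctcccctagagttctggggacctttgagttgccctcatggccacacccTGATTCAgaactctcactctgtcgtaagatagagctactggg
Igsf11: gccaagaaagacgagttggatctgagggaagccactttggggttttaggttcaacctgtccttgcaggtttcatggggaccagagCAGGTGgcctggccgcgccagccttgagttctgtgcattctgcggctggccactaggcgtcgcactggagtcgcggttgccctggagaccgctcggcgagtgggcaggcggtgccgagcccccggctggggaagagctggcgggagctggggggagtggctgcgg

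The promoters differed in base composition. That of Igsf11 had 65.6% G and C with 16 CpG dinucleotides, and that of Cd80 had 52.8% with 3. Motifs were searched on both strands: the interferon-γ activated site TTCNNNGAA, the AP-1 form TGANTCA, the E-box CANNTG, an NF-κB form and the core of the interferon-stimulated response element. Cd80 held 1 AP-1 match, 42 to 36 bases before the start, and 6.75% of 32851 promoters of the same length held this motif. Each promoter held 1 E-box, a motif found in 66.2% of promoters, and no marked matches overlapped. The interferon-γ activated site, found in 7.02% of promoters, the NF-κB form, in 4.65%, and the response element core, in 2.98%, had no match in these windows.

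The row names needed a check before use, since many rows of the table do not carry the level that their name implies. Rows named for universally expressed families, such as proteasome and translation factor genes, had a mean of 1 RPKM or more in 17 of 18 cases on chromosome 16 up to position 92058270. On the other chromosomes 89 of 281 such rows (31.7%) did. Names are therefore used here only for the 461 rows in that stretch of chromosome 16, a limit set after the values were seen. It is the start of the last row of these families that reached 1 RPKM, so the stretch ends on a pass. The 1 row of these families beyond it, Psmg1, had a mean of 0 RPKM. Values step by the worth of a single read, and these steps gave each row's read number and the length of its gene model. Run 1 depth, by which the values are divided, was 13.0 to 18.2 M reads per library. The reads counted in the rows were fewer, from 1525789 (cytokine medium at P15) to 2145533 (cytokine medium at P1).

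The row lengths were matched to annotated transcripts. For Cd80 the row length was 1701 bp, that of 1 annotated transcript, out of 3703 bp of annotated exons. Igsf11 had 3620 bp, equal to 2 of its transcripts together, and Jam2 had 5872 bp, equal to 3 together. Cxadr had 6309 bp, within 3 bp of 2 of its transcripts together. The longest exon block made up 72.5% of the Cxadr model, 66.2% of that of Igsf11, 53.5% of that of Jam2 and 37.0% of that of Cd80. Where the coordinates used for counting were shifted against the aligned reads, this layout sets how much of a gene would still be counted. A shift of 240 bp, taken as an example, would leave at least 76.2% of the Cxadr model on its own exons, 76.7% of that of Jam2, 59.7% of that of Igsf11 and 36.9% of that of Cd80. The shift itself is not known here, so levels between genes are not compared, and the name of Cd80 is the least secure of the 4.

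**Figure D1:**
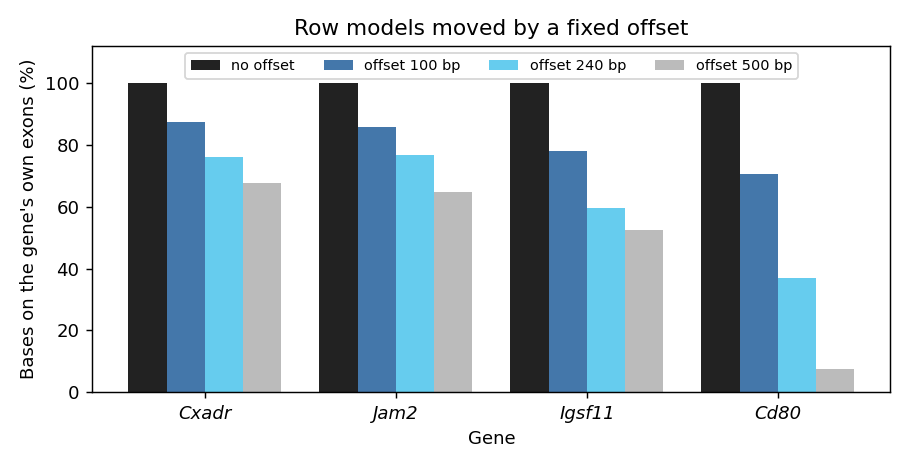
Share of each gene model's bases (percent, vertical axis) that stays on the gene's own annotated exons when the model is moved by 0, 100, 240 or 500 bp, with the lower of both directions shown. Cd80 keeps 7.6% at 500 bp and Cxadr 67.6%.

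Cxadr and Btg3, an antiproliferative gene on the opposite strand, overlap: 695 bp of their annotated exons are shared, and whether the counting used strand is not stated. With no shift, the model that fits the Cxadr row length shares 418 bp with Btg3 exons. None of these bases lie in the model that fits the Btg3 row. Moved by the example shift of 240 bp, the Cxadr model would share 573 bp toward higher and 418 bp toward lower coordinates. The Btg3 model would share 155 bp with Cxadr exons toward lower coordinates. The Btg3 row stood at 0.481 to 1.12 RPKM in the 9 libraries, with 9 to 40 reads in run 1. The Cxadr row had 279 to 1364 reads. How many reads of Cxadr come from Btg3 was not tested.

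**Figure D2:**
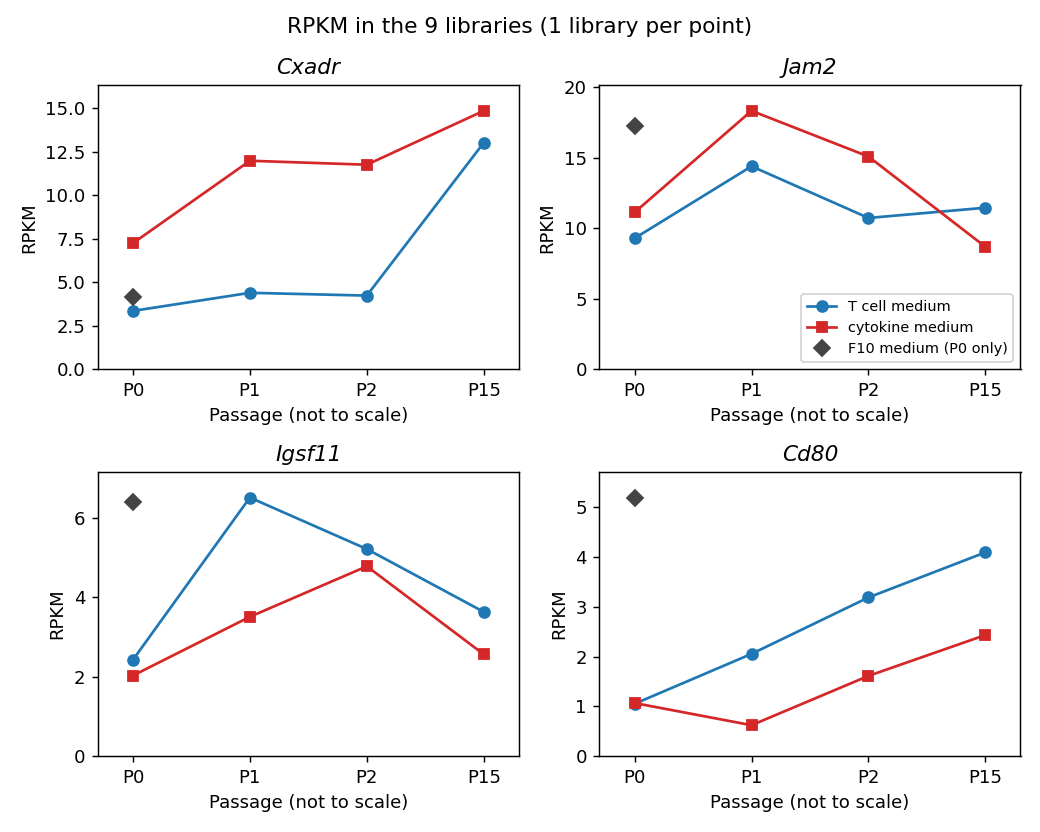
RPKM (vertical axis, from 0) of each gene at P0, P1, P2 and P15, with 1 library per point. Circles are T cell medium, squares cytokine medium and the diamond the F10 library. Cxadr in T cell medium goes from 4.24 at P2 to 13.0 at P15, and Cd80 is highest in the F10 library at 5.20.

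Cxadr was the member with a higher level in cytokine medium at every passage. The T cell libraries, listed from P0 through P1 and P2 to P15, had 3.36, 4.40, 4.24 and 13.0 RPKM. The cytokine libraries in the same order had 7.25, 12.0, 11.8 and 14.9 RPKM. The F10 library had 4.17 RPKM. The 3 early T cell libraries and the F10 library were low, and the 4 cytokine libraries and the P15 library in T cell medium were high, so the media overlapped through P15 alone. In RNA of whole cultures, fewer cells of a type and less RNA per cell cannot be told apart. Cytokine medium was higher at 4 of 4 passages, as it was for 22.9% of the 3210 rows tested. None of the 4 members had media that did not overlap, where 7.38% of rows had all 4 cytokine libraries above all 4 T cell libraries and 5.51% had them below.

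Ratios between libraries are given as run 1 reads per depth, with exact 95% intervals that cover counting error only and hold no error of culture or library. The cytokine to T cell ratio of Cxadr was 2.19 for P0 (1.91 to 2.53), 2.73 for P1, 2.75 for P2 and 1.15 for P15 (1.06 to 1.24). On the log2(RPKM + 1) scale the mean difference was 0.91 ± 0.52 (SD, n = 4 passages). In that fit 11.1% of rows passed a limma adjusted p of 0.05, 5.36% upward and 5.73% downward, and nothing is read from the place of Cxadr among them, since this comparison took part in its choice. Without P15 the mean difference was 1.16.

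The smaller difference at P15 went with the level in T cell medium. From P2 to P15 Cxadr was 3.01-fold higher in T cell medium (2.698 to 3.36) and 1.25-fold higher in cytokine medium (1.16 to 1.36). The medium difference at P15 was 0.18 against 1.16 over P0 to P2, a change of -0.98 ± 0.20 (SE) on the log2(RPKM + 1) scale. It is a description without a test, since these differences took part in the choice of Cxadr, and P15 enters it as 1 difference with no replicate.

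Across media, P15 was compared with P0 to P2. P15 has 1 library in each medium. The SE and p of this comparison, for every member, therefore hold no replicate of a passage within a medium. Cxadr was higher at P15 by 1.00 ± 0.24 (SE), with a limma adjusted p = 0.111 and an unadjusted p of 0.00288, where 0.249% of rows passed and 19.2% were under 0.05 unadjusted. Both P15 libraries were above all 6 earlier ones, as for 8.01% of rows, and no member was below all of them, as 10.5% of rows were. P0 was the lowest and P15 the highest level in both media, which held for 3.3% of rows. The low T cell levels in the P0 to P2 baseline took part in the choice of Cxadr. Nothing is therefore read from these p values or shares. In the order of levels, several neighbours were not separate. The P15 library in T cell medium did not differ beyond counting error from cytokine medium at P1, nor that from cytokine medium at P2. P1 in T cell medium did not differ from P2, nor P2 from the F10 library. The other neighbouring pairs differed beyond counting error.

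**Figure D3:**
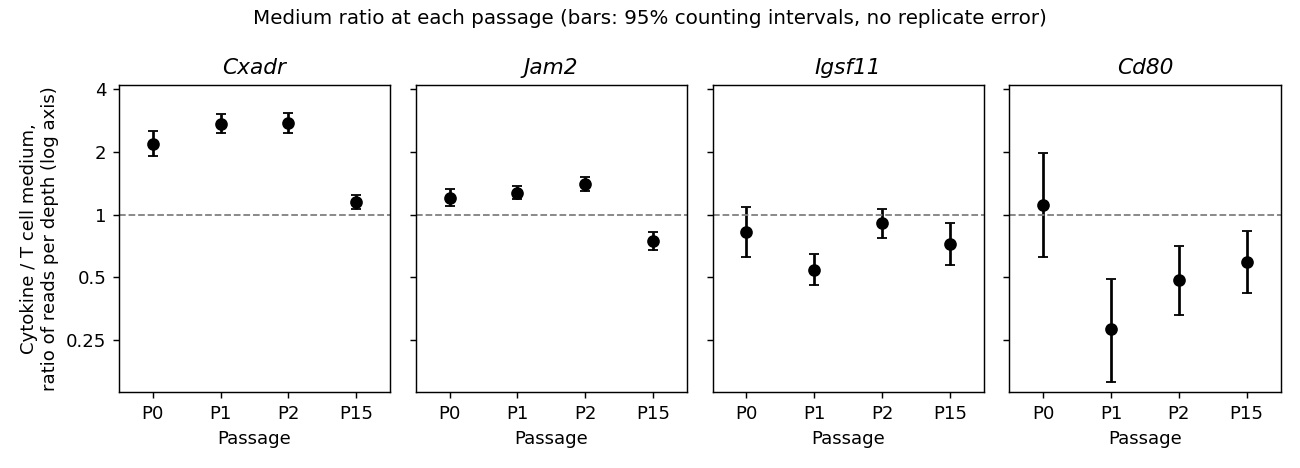
Ratio of cytokine to T cell medium at each passage (run 1 reads per depth, log axis), with exact 95% counting intervals as bars and the dashed line at 1. Cxadr lies above 1 at all 4 passages, Jam2 above 1 at P0 to P2 and below it at P15, and Cd80 below 1 at P1, P2 and P15.

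Jam2 crossed between the media at P15. From P0 to P15 the T cell libraries had 9.29, 14.4, 10.7 and 11.5 RPKM, and the cytokine libraries had 11.1, 18.3, 15.1 and 8.69 RPKM. The F10 library, at 17.3 RPKM, did not differ beyond counting error from the highest library, cytokine medium at P1. The ranges of the media overlapped, and P1 was the highest passage in both, as for 5.67% of rows.

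The cytokine to T cell ratio of Jam2 was 1.21, 1.28 and 1.40 over the 3 early passages and 0.744 at P15 (0.674 to 0.821). A difference above 0 at the 3 early passages and below 0 at P15 was found in 9.6% of rows. Over the 4 passages the mean log2 difference was 0.16 ± 0.36 (SD), with a limma adjusted p = 0.45. Without P15 it was 0.34 and passed (limma adjusted p = 0.0492), in a fit where 15% of rows passed and which keeps the P0 libraries that took part in the choice of Jam2. Without P0 it was 0.14 (limma adjusted p = 0.678). From the early passages to P15 the medium difference changed by -0.70 ± 0.17 (SE; limma adjusted p = 0.427, unadjusted 0.0062), where 0.218% of rows passed and 6.54% were under 0.05 unadjusted. P15 enters this test as 1 difference with no replicate. Its early passages hold the P0 libraries that took part in the choice of Jam2, so nothing is read from these p values. Without P0 the change was -0.75.

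From P2 to P15 Jam2 was 0.572-fold in cytokine medium (0.52 to 0.628) and 1.08-fold in T cell medium (0.988 to 1.175). Across media the P15 level differed from the earlier ones by -0.33 ± 0.23 (SE; limma adjusted p = 0.456). Without the P15 library in cytokine medium this difference was 0.0188, so that library set its sign.

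Igsf11 was low at P0 in both supplemented media. The F10 library had 6.41 RPKM. From P0 to P15, T cell medium had 2.43, 6.51, 5.21 and 3.63 RPKM, and cytokine medium had 2.03, 3.51, 4.78 and 2.56 RPKM. P0 was the lowest passage in both media, as for 9.35% of rows, and nothing is read from this, since the low P0 levels took part in the choice of Igsf11. The ranges of the media overlapped. The top library, T cell medium at P1, did not differ beyond counting error from the F10 library.

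Cytokine medium was below T cell medium for Igsf11 at 4 of 4 passages, a pattern of 17.1% of rows. The ratio was 0.544 at P1 (0.459 to 0.643) and 0.723 at P15 (0.573 to 0.91). At P0 and P2 it was 0.824 and 0.907, with intervals that held 1 (0.625 to 1.085 and 0.769 to 1.069). The mean log2 difference was -0.35 ± 0.28 (SD) and did not pass (limma adjusted p = 0.0871). Without P0 it was -0.41 (limma adjusted p = 0.176).

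Igsf11 also differed between passages of 1 medium. From P0 to P1 it was 2.75-fold higher in T cell medium (2.22 to 3.43) and 1.82-fold higher in cytokine medium (1.435 to 2.31). The low P0 levels took part in the choice of Igsf11, so these rises are descriptions. From P2 to P15 Igsf11 was 0.666-fold in T cell medium (0.556 to 0.797) and 0.531-fold in cytokine medium (0.426 to 0.66). P15 lay between P0 and P2 in both media, and the difference of P15 from P0 to P2 was -0.25 ± 0.31 (SE; limma adjusted p = 0.701). Without P0 it was -0.54 (limma adjusted p = 0.263). The medium difference at P15, -0.38, was near that at the earlier passages, -0.34 (change -0.04 ± 0.27 SE; limma adjusted p = 0.994).

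Cd80 had the lowest read numbers of the 4, with 18 to 126 reads in run 1. It was at 5.20 RPKM in the F10 library. From P0 to P15 the T cell libraries had 1.05, 2.06, 3.19 and 4.10 RPKM, and the cytokine libraries had 1.07, 0.624, 1.61 and 2.43 RPKM. The F10 library was above the other 8 libraries, as for 17% of rows. Its level took part in the choice of Cd80, so this is a description. Adjacent levels in the order of all 9 libraries did not differ beyond counting error, so only wider gaps can be read.

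In T cell medium Cd80 was higher at each step from P0 to P15, as were 3.64% of rows. The low P0 levels took part in the choice of Cd80, so its rises from P0 in either medium are descriptions. No member was higher at each step in cytokine medium, where 6.6% of rows were. In T cell medium P15 was 3.85 times P0 (2.46 to 6.27), while the step from P2 to P15 was within counting error (1.25-fold, 0.94 to 1.68). Cytokine medium was lowest at P1 and at P15 was 2.06 times its P0 level (1.29 to 3.34). The P15 libraries did not both stand above the earlier ones, because T cell medium at P2 exceeded cytokine medium at P15. Across media P15 was higher than P0 to P2 by 0.76 ± 0.26 (SE; limma adjusted p = 0.177, unadjusted 0.0169). The low P0 levels in this baseline took part in the choice of Cd80, and without P0 the difference was 0.62 (limma adjusted p = 0.323).

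Between the media, Cd80 could not be separated at P0 (ratio 1.11, 0.627 to 1.98) and was lower in cytokine medium at the later passages. The ratio was 0.283 at P1 (0.156 to 0.488), 0.484 at P2 (0.328 to 0.706) and 0.593 at P15 (0.419 to 0.83). A deficit at these 3 passages was found in 20.6% of rows. The mean log2 difference over 4 passages was -0.54 ± 0.39 (SD), which did not pass (limma adjusted p = 0.058). Without P0, whose libraries took part in the choice of Cd80, it was -0.72, with an unadjusted limma p of 0.000471 and an adjusted p of 0.0623. In the fit without P0, 11 of the 3210 rows rose and 2 fell at a limma adjusted p under 0.05. The share of rows under 0.05 unadjusted was 30.4% in the fit over all 4 passages. It is not given for the fit without P0, so nothing is read from the unadjusted p. The change of this difference at P15 was within its error (-0.04 ± 0.35 SE; limma adjusted p = 0.994).

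Against the F10 library at P0, Cd80 and Igsf11 were the lowest of the members in both media, and Cxadr was the 1 member on either side of it. In T cell medium the ratio was 0.21 for Cd80 (0.13 to 0.327) and 0.359 for Igsf11 (0.288 to 0.446). It was 0.54 for Jam2 (0.493 to 0.591) and 0.799 for Cxadr (0.683 to 0.935). All 4 were lower than in F10 medium, as were 55.3% of rows. On the log2(RPKM + 1) scale Cd80 and Igsf11 were at least 2-fold lower, as were 0.53% of rows, and nothing is read from that count, since this contrast took part in the choice of the members.

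In cytokine medium the ratios to the same F10 library were 0.233 for Cd80 (0.151 to 0.349) and 0.296 for Igsf11 (0.235 to 0.369). Both genes were again at least 2-fold lower on the log2 scale, as were 1.62% of rows. Nothing is read from that count either, since this contrast took part in the choice of Cd80 and Igsf11. Jam2 was at 0.651 (0.6 to 0.706), and 3 of the 4 members were lower than in F10 medium, as were 50.7% of rows. Cxadr was at 1.75 (1.546 to 1.99), the 1 member above F10 medium. It did not reach 2-fold, as 2.18% of rows did. Both comparisons share the single F10 library, whose error is unknown, and the serum and FGF of that library cannot be told apart from the added factors. The median log2 difference over all 3210 rows was -0.026 for T cell and -0.0038 for cytokine medium.

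**Figure D4:**
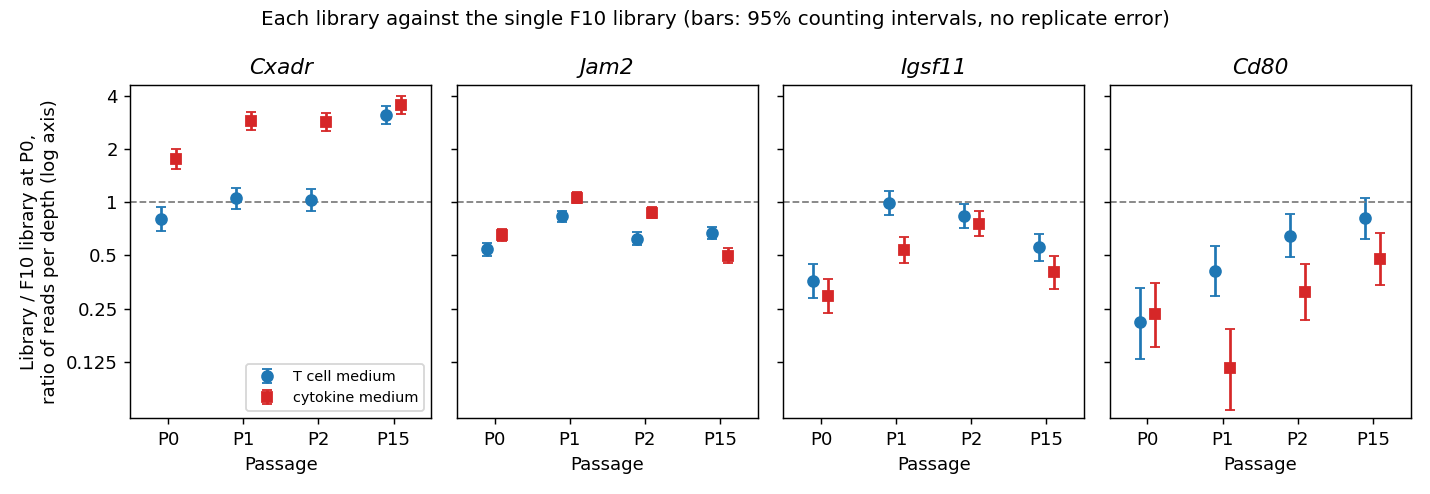
Ratio of each library to the single F10 library at P0 (run 1 reads per depth, log axis), with exact 95% counting intervals as bars. Circles are T cell medium, squares cytokine medium and the dashed line marks 1. Cd80 in T cell medium goes from 0.21 at P0 to 0.809 at P15, and Igsf11 from 0.359 at P0 to 0.989 at P1.

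Later passages were set beside the F10 library as values only, because F10 medium was sampled at P0. Cd80 stayed below it in all 4 cytokine libraries, as did Igsf11 and 34.5% of rows, with a run 1 ratio of 0.48 at P15 (0.341 to 0.666). In T cell medium at P15 the ratio was 0.809 (0.62 to 1.054), within counting error of the F10 level. All 4 T cell libraries were below F10 for Cd80 and Jam2, as for 28.1% of rows. Igsf11 in T cell medium was at the F10 level at P1 (0.989, 0.851 to 1.15) and at 0.555 at P15 (0.464 to 0.661). Jam2 in cytokine medium was at 1.06 at P1 (0.99 to 1.135) and 0.499 at P15 (0.454 to 0.547). Cxadr exceeded it in all 4 cytokine libraries, as did 26% of rows.

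The members did not follow 1 pattern. Over the 9 libraries, Pearson's r of log2(RPKM + 1) was 0.609 between Jam2 and Igsf11, 0.545 between Igsf11 and Cd80, 0.019 between Cxadr and Jam2 and -0.33 between Cxadr and Igsf11. These are descriptions over 9 points that share media and passages. Levels among these points took part in the choice of the members, so a high r between members is not read as a result. Among the 299 other named rows at 1 RPKM or more, those most like Cxadr were the mitochondrial citrate carrier gene Slc25a1 (r = 0.918), the short-chain collagen gene Col8a1 (0.887) and Carhsp1 (0.877). For Jam2 they were the zinc finger gene Zfp148 (0.845), Alcam (0.789), which encodes another immunoglobulin superfamily adhesion protein, and the SUMO protease gene Senp5 (0.739). Igsf11 was most like Ubxn7 (0.806), the ETS factor gene Etv5 (0.8) and Gnb1l (0.786). Cd80 was most like the DNA repair gene Ercc4 (0.856), the T-box factor gene Tbx1 (0.852) and the scavenger receptor gene Scarf2 (0.849).

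Nearby genes gave a view of the local region. Within 250 kb of a member, counted between the lower coordinates of both genes, 13 named genes had at least 1 RPKM, 7 of them near Cd80, 4 near Jam2 and 1 each near Igsf11 and Cxadr. Adprh, 11.5 kb before Cd80, differed between cytokine and T cell medium by -0.31 and Timmdc1, 42.8 kb after it, by -0.21. Neither passed (limma adjusted p = 0.0884 and 0.243). Pla1a, a phospholipase gene 59.4 kb before Cd80, was higher than in F10 medium at P0 by 1.03 in T cell and 1.36 in cytokine medium, opposite in sign to Cd80. It was the 1 neighbour at least 2-fold apart from F10 medium. Of all rows, 1.62% were at least 2-fold higher in T cell and 2.18% in cytokine medium. At least 2-fold lower were 0.53% in T cell and 1.62% in cytokine medium. Of the 300 rows with a usable name, 10 were at least 2-fold higher in T cell and 14 in cytokine medium. At least 2-fold lower were 2 and 5 of them. D16Ertd472e, 238.8 kb after Cxadr, rose in cytokine against T cell medium by 0.40 (limma adjusted p = 0.0495). The 3 nearest neighbours of Jam2, Atp5j, Mrpl39 and Gabpa, differed between the media by -0.18, 0.20 and -0.09 and did not pass (limma adjusted p = 0.136, 0.21 and 0.433). D16Ertd472e was the 1 of the 13 neighbours that passed, where 11.1% of all rows did. Of the 300 rows with a usable name, 27 rose and 17 fell. The 1 of 13 is therefore not read as a result about the region.

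Of a list of 58 names of other immunoglobulin superfamily surface genes, synonyms included, 15 had a usable row name and 6 had at least 1 RPKM. Cd47, the signal that restrains uptake by phagocytes, was the 1 that passed between cytokine and T cell medium, with a rise of 0.42 ± 0.10 (SE; limma adjusted p = 0.0432). Over all 3210 rows, most of them without a usable name, 11.1% passed and 5.36% rose. Among the 300 rows with a usable name, 27 rose and 17 fell. The 1 of 6 is therefore not read as a result about the list. Cd47 was at 5.62 RPKM in the F10 library, 10.2 to 16.04 in T cell and 15.3 to 19.7 in cytokine medium. Boc, a receptor of muscle precursor cells, differed by -0.57 ± 0.15 (SE; limma adjusted p = 0.0538), and Cd200, a ligand that restrains myeloid cells, by -0.82 ± 0.35 (SE; limma adjusted p = 0.167). Alcam differed by 0.50 ± 0.22, Robo1 by 0.11 ± 0.11 and the nectin gene Pvrl3 by -0.12 ± 0.07 (SE), at limma adjusted p of 0.188, 0.53 and 0.296. The median over the 6 genes was -0.004, and that over all rows 0.03. At P15 against P0 to P2 their median was -0.10, with 0 passing in limma and 1 at an unadjusted p under 0.05.

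Other genes of the contact between T cells and their partners were also read. Cd86, which encodes the other B7 ligand of CD28, stood at 0 to 0.0181 RPKM. The T cell genes Btla and Tigit stood at 0.115 to 1.12 and 0.13 to 1.498 RPKM. Of 12 blood cell markers 5 had usable names, and none had a mean of 1 RPKM. They were Hcls1, Cd86, Btla, Tigit and Cd200r1, of which all but Hcls1 are also on the list above, and Cd86 and Cd200r1 were at 0 in most libraries. Their summed level was 0.885 RPKM in the F10 library, 0.988 to 1.68 in T cell and 1.29 to 2.89 in cytokine medium. These markers did not go 1 way. Hcls1, a gene of blood cells, was at 0.0148 to 0.287 RPKM in T cell and 0.437 to 1.73 in cytokine medium. Btla was lower in cytokine medium at each passage, at 0.506 to 1.12 RPKM in T cell and 0.115 to 0.54 in cytokine medium. Tigit overlapped, at 0.13 to 0.863 and 0.318 to 1.498 RPKM. The part of blood cells in the Cd80 and Cxadr values was not tested.

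The satellite cell label could not be checked here, and other cell types could be read only in part. None of 8 satellite cell and myoblast markers, 7 endothelial markers or 4 fibroblast markers had a usable row name. Adipoq, an adipocyte gene, was at 0 in 8 libraries and at 0.0245 RPKM in the F10 library, and the epithelial gene Cldn1 stood at 0.18 to 0.59 RPKM. Gap43, listed for glia, stood at 2.44 RPKM in the F10 library, 0.585 to 4.57 in T cell and 2.96 to 9.07 in cytokine medium. Its difference between the media was 1.13 ± 0.37 (SE; limma adjusted p = 0.0952), and its part in the Cxadr values was not tested.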

How the data were processed

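RNA of 9 libraries was sequenced from TruSeq libraries, per the labels' protocols. The deposited values are RPKM, made by the authors. Per the submitters' processing notes the tools included TopHat2 2.0.1 and HTSeq 0.5.4p2 and the build was mm10, with no roles given. The annotation and strand setting are not stated. The 2 columns per library had a chi-square per row of 0.457 to 0.487, where independent sampling gives about 1, a difference below sampling noise, and were averaged into 1 sample. Whole reads, within 0.02, were recovered for 99.97% of rows with reads, and 5443 of 11105 matched row lengths equal GENCODE vM21 exon lengths.

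Tests used limma 3.58.1 in R 4.3.3 with trend on log2(RPKM + 1), over 3210 rows with a mean of at least 1 RPKM, with Benjamini-Hochberg adjustment over all of them. The 4 T cell and 4 cytokine libraries entered, with passage as a block (taken from the labels) between media and medium as a covariate for P15. The fit was tested on simulated data. Ratios to F10 medium have no replicate. Counting intervals are exact Clopper-Pearson intervals on run 1 reads. Reads carry no molecular identifiers, so they cover counting error only. The members and lists were chosen with earlier results of these data known. Named genes are the members, overlapping genes, the 3 most correlated rows of each member, neighbours within 250 kb and listed genes. Alternatives changed the pseudocount (0.1), filter (none, 5 RPKM), scaling, trend, column, block and passages.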

Additional observations from a re-analysis of the deposited data

Results flagged for a closer look

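Cxadr in T cell medium at P15, at 13.02 RPKM, stood apart from the other 3 T cell libraries, which were at 3.36 to 4.40 RPKM. The gap was 0.892 of the range of the 4 libraries, above the 95% limit of Dixon's test for 4 values, which chance passes in about 1 in 20 groups. The low values of the other T cell libraries took part in the choice of Cxadr, so this gap is a description. Of the 8 gene and medium groups examined this was the 1 that passed.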

How the results depend on the processing

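The direction of all 4 members between cytokine and T cell medium held under all alternatives that tested them. The filter and trend do not enter these values, and the block cannot change them with both media at every passage. For Cxadr this comparison took part in its choice, so its direction is a description. Jam2 passed without P15, at 0.34 (limma adjusted p = 0.0492). Leaving out 1 passage gave 0.79 to 1.16 for Cxadr, 0.0672 to 0.34 for Jam2, -0.43 to -0.22 for Igsf11 and -0.72 to -0.41 for Cd80. Over all alternatives the limma adjusted p ran from 0.0756 to 0.493 for Igsf11 and from 0.0521 to 0.348 for Cd80. With no replicate block (no passage term) the values were by design the same, 0.91, 0.16, -0.35 and -0.54. The limma adjusted p was 0.706, 0.493 and 0.348 for Jam2, Igsf11 and Cd80, and none of these 3 passed in either fit. For P15 the fit without the medium term gave adjusted p of 0.335, 0.568, 0.781 and 0.343 for Cxadr, Jam2, Igsf11 and Cd80. For P15 against P0 to P2, leaving out 1 passage or library gave 0.51 to 1.49 for Cxadr, -0.68 to 0.0188 for Jam2, -0.54 to -0.09 for Igsf11 and 0.62 to 0.97 for Cd80, and no member passed. From the early passages to P15 the medium difference changed by values that ran from -0.24 to 0.0787 for Igsf11 and from -0.23 to 0.23 for Cd80 when 1 passage was left out, and that of Cd80 was 0.11 at a pseudocount of 0.1. At that pseudocount the differences from F10 medium were -1.37 (Igsf11) and -2.20 (Cd80) in T cell medium and -1.61 and -2.18 in cytokine medium, since a smaller pseudocount shrinks low levels less. With a filter of 5 RPKM, Igsf11 and Cd80 were not tested.

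Over all rows, 172 rose and 184 fell between the media. These counts were 0 and 0 with no filter, where limma tests all rows, 32 and 24 without the passage term, and 8 to 222 and 2 to 258 with 1 passage left out. With a filter of 5 RPKM 93 fell. For P15, 4 rose and 4 fell, and alternatives gave 0 to 17 and 0 to 10. For the change of the medium difference 7 passed upward and 0 downward, and alternatives gave 0 to 33 and 0 to 5. Depth limits Cd80 most.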
